A study of Mus musculus with 1528 samples.

Results

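The Ms4a genes described here, *Ms4a4a*, *Ms4a4c*, *Ms4a6b*, *Ms4a6c*, *Ms4a6d* and *Ms4a7*, are 6 of the 55421 genes in a count table of single bone marrow–derived macrophages (BMDMs), and their rows were picked by symbol. All 6 passed the filter on low counts. The cells came from 2 wild-type mice labelled C57BL/6 (male C57BL/6J in the study’s methods), were grown from bone marrow with M-CSF, and received IL4+IL13 for 24 h, either alone or together with TNF (each cytokine at 10 ng/ml). Below, the second group is called IL4+IL13+TNF. M-CSF, IL4 and IL13 were therefore common to both groups, no unstimulated cells were analysed here, and the age of the mice is not given in the sources used here. Live single cells were sorted into 384-well plates for Smart-seq2. Plates 2 and 3 were for mouse 1 and plates 4 and 5 for mouse 2, and each plate held both treatments in separate rows. The paper describes 2 independent experiments for this assay, which may be the 2 mice. A difference between the mice therefore cannot be told apart from one of plates or experiments. Of 1524 wells with a known mouse and treatment, 1386 were kept, 333 to 357 for each mouse and treatment, and their counts were summed to 4 totals of 162260282 to 179757666 fragments. Smart-seq2 carries no molecular identifiers, so PCR copies of a molecule are all counted, and the intervals given for shares of cells take in the counting error alone. The cells carried macrophage transcripts under both treatments. The 8 macrophage markers summed to between 15182 and 16748 CPM (counts scaled to a common library total) with IL4+IL13. With TNF they summed to between 27314 and 28500 CPM, and *Lyz2*, lysozyme, made up most of both sums. Most of the markers did not rise: 6 had a log2 fold change below 0 with TNF and 2 above 0, with a median of -0.20. Markers of other cells were low: over all genes of each list, those of B cells summed to at most 3.84 CPM, T cells to 1.77, mast cells or basophils to 0.565 and neutrophils to 5.73 CPM, and *Cd3d*, *Mcpt8*, *Fcer1a*, *Ly6g* and *Elane* had 1 to 6 fragments each in all kept cells. Markers of dendritic cells summed to between 9.59 and 14.2 CPM, with *Flt3* the highest and found in 93.1% of the cells.

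The MS4A genes encode small membrane-spanning proteins whose chains cross the membrane several times and sit beside receptors in the plane of the membrane. The founding members are CD20 of B cells, encoded by *Ms4a1*, and the beta chain of the high-affinity IgE receptor of mast cells, encoded by *Ms4a2*. Most of the mouse family lies in a single array on chromosome 19, and several of its genes, including those followed here, are known from monocytes, macrophages and microglia. MS4A4A is known as a surface protein of alternatively activated macrophages that associates with the beta-glucan receptor Dectin-1.

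All 6 members differed between the treatments in the same direction in both mice and on 4 of 4 plates, 5 of them lower with TNF and *Ms4a7* higher. The differences ranged from a 4.15-fold lower mean CPM for *Ms4a4a* to a 1.53-fold higher mean CPM for *Ms4a7*. For each of the 6, the values of the 2 mice with TNF did not overlap those without. Over the 17034 genes tested, both mice were lower with TNF than either mouse without it for 17.9% of genes and higher for 18.6%, and 16.6% were lower and 18.8% higher on 4 of 4 plates. In the quasi-likelihood test of edgeR, with p-values adjusted after Benjamini and Hochberg over all genes tested, 0 of 6 members passed the threshold of 0.05, where 0% of all genes passed as lower and 0.00587% as higher, the latter a single gene. At an unadjusted p under 0.05 the same test had 5 of 6 members and 8.1% of all genes. With the mouse as a block, which compares the treatments within each mouse, *Ms4a4c* and *Ms4a6c* were called lower, beside 1.88% of all genes called lower and 1.94% called higher. DESeq2 called 4 of 6 members lower, beside 1.72% of all genes called lower and 1.79% called higher, and limma on the mean CPM per cell called 0 of 6, beside 0% of all genes called lower and 0.00587% called higher, with 5 of 6 members and 8.55% of all genes at an unadjusted p under 0.05. The median log2 fold change of the 6 members was -1.41, against 0.0038 over all genes tested.

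**Figure D1:**
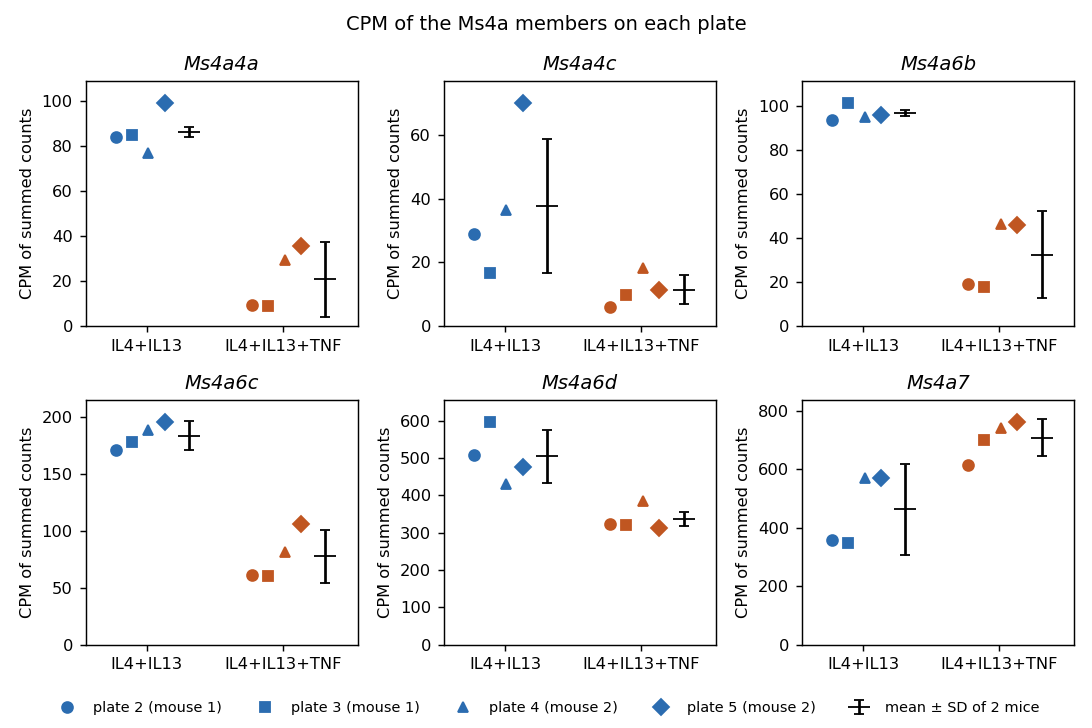
CPM of the summed counts of each Ms4a member (y axis, from 0) on each plate under IL4+IL13 (blue) and IL4+IL13+TNF (orange), with symbols for plates and the mean ± SD of the 2 mice in black. The plates with TNF lie below those without for *Ms4a4a*, *Ms4a6b*, *Ms4a6c* and *Ms4a6d* and above them for *Ms4a7*, while plate 3 without TNF and plate 4 with TNF overlap for *Ms4a4c*.

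Levels can be compared between genes only per length, here as CPM per kb of the summed exon length of the count table. *Ms4a6d* led with IL4+IL13 at 291 ± 40.8 CPM per kb (SD, n = 2 mice). *Ms4a7* at 104 ± 34.9, *Ms4a4a* at 103 ± 2.49 and *Ms4a6c* at 89.7 ± 6.16 CPM per kb followed. The mice of *Ms4a7* spanned those of both others. By this measure *Ms4a4a*, at 102 and 105 CPM per kb, lay above *Ms4a6c*, at 85.3 and 94.0, in both mice. However, 1189 of the 2050 exon bases of *Ms4a6c* overlap another gene, *BE692007*. Its level per kb, and so its place in the order under either treatment, is uncertain, and the shares and sums below carry the same limit. *Ms4a6b* and *Ms4a4c* were lowest, both at 21.5 CPM per kb, with SDs of 0.267 and 12. With TNF the order became *Ms4a6d* at 194 ± 10.9 CPM per kb, *Ms4a7* at 159 ± 14.5, *Ms4a6c* at 37.9 ± 11.5, *Ms4a4a* at 24.9 ± 20.04, *Ms4a6b* at 7.18 ± 4.40 and *Ms4a4c* at 6.53 ± 2.66, and the spreads of *Ms4a6c* and *Ms4a4a*, and those of *Ms4a6b* and *Ms4a4c*, overlapped. *Ms4a4a* therefore stood near *Ms4a7* without TNF and well below it with TNF. As a share of the 6 members’ summed CPM per kb, *Ms4a7* made up 12.8% and 20.1% in mouse 1 and mouse 2 without TNF and 38.7% and 35.7% with TNF, while *Ms4a4a* made up 16.4% and 16.4% without TNF and 2.80% and 8.23% with TNF. The summed level itself was 621 and 641 CPM per kb without TNF and 384 and 475 with TNF.

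*Ms4a4a* and *Ms4a4c* are neighbours on the plus strand and belong to the Ms4a4 branch of the family. *Ms4a4a* (ENSMUSG00000101389, chr19:11375523-11392790, mm10) was at 84.3 and 85.2 CPM on the plates of mouse 1 with IL4+IL13 and at 77.3 and 99.2 CPM on those of mouse 2. With TNF the plates of mouse 1 were at 9.25 and 8.74 CPM and those of mouse 2 at 29.6 and 35.5 CPM. The plates of the 2 mice overlapped without TNF and lay apart with TNF. With 0.5 CPM added to both values, as for all folds within a mouse or plate, *Ms4a4a* was 9.01-fold lower with TNF in mouse 1 and 2.66-fold lower in mouse 2. Its log2 fold change was -2.05 with an SE of 0.62 (edgeR adjusted p = 0.482, and 0.0599 with the mouse as a block). Whether the size of the difference itself differed between the mice was not tested.

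*Ms4a4c* (ENSMUSG00000024675, chr19:11404770-11427246), known as a gene of inflammatory monocytes and of the interferon response, was the least even member between plates. Without TNF it was at 28.8 and 16.7 CPM on the plates of mouse 1 and at 36.6 and 70.0 CPM on those of mouse 2. With TNF it was at 5.92 and 9.90 CPM in mouse 1 and at 18.2 and 11.2 CPM in mouse 2, lower than its own plate each time, although plate 4 with TNF exceeded plate 3 without. The mice had 2.70-fold and 3.48-fold lower CPM with TNF. The log2 fold change was -1.72 with an SE of 0.51 (edgeR adjusted p = 0.480), and with the mouse as a block it was -1.66 and passed the threshold (adjusted p = 0.0145).

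The upstream 250 bases of *Ms4a4a* are shown because this gene had the largest fold of the 6. RefSeq (GRCm38.p6, the build mm10) gives them at chr19:11375238-11375487 on the plus strand, and the capitals mark the match to the NF-kB motif.
Ms4a4a: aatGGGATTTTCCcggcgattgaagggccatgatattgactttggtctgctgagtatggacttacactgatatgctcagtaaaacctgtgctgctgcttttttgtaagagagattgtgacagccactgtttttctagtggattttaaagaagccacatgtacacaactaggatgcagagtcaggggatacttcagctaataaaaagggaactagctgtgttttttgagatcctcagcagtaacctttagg
The upstream 250 bases of 5 members were searched on both strands for TTCNNNNGAA and TTCNNNGAA (STAT sites with spacers of 4 and 3 bases), GAAA repeated after a gap of 2 bases (an interferon response element), TGANTCA (AP-1), GAGGAAG (PU.1), TTGCNNAA (C/EBP) and NF-kB. Of 32807 RefSeq promoters of the same length, 5.85%, 7.02%, 2.97%, 6.75%, 10.6%, 9.57% and 7.25% held these motifs in that order. The *Ms4a4c*, *Ms4a6b* and *Ms4a6c* windows held no match to any of the 7, which says only that these letters are not in those windows. *Ms4a6d* has no entry in the promoter table.

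*Ms4a6b*, *Ms4a6c* and *Ms4a6d* form the Ms4a6 branch. *Ms4a6c* (ENSMUSG00000079419, chr19:11469366-11482192, plus strand) was at 171 and 178 CPM on the plates of mouse 1 without TNF and at 189 and 196 CPM on those of mouse 2. With TNF it was at 61.6 and 60.5 CPM in mouse 1 and at 81.7 and 106 CPM in mouse 2, and the 4 plates with TNF all lay below the 4 without, as they did for 5.17% of all genes. It was 2.85-fold and 2.04-fold lower in the 2 mice. Its log2 fold change was -1.24 with an SE of 0.26 (edgeR adjusted p = 0.304), and with the mouse as a block it was -1.27 and passed the threshold (adjusted p = 0.0201).

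*Ms4a6b* (ENSMUSG00000024677, chr19:11516512-11531256, plus strand) had nearly the same level on every plate without TNF, 93.5 and 101 CPM in mouse 1 and 95.0 and 95.9 CPM in mouse 2. With TNF it was at 18.9 and 17.7 CPM in mouse 1 and at 46.3 and 45.8 CPM in mouse 2. As for *Ms4a4a*, the mice were alike without TNF and apart with it, with CPM 5.22-fold lower in mouse 1 and 2.06-fold lower in mouse 2. The log2 fold change was -1.58 with an SE of 0.46 (edgeR adjusted p = 0.459, and 0.0608 with the mouse as a block).

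*Ms4a6d* (ENSMUSG00000024679, chr19:11586604-11604849, minus strand), the member with the highest level per length, had the smallest difference of the 5 that were lower. It was at 510 and 598 CPM in mouse 1 and at 432 and 477 CPM in mouse 2 without TNF, and at 323 and 322 CPM in mouse 1 and 386 and 312 CPM in mouse 2 with TNF. The 8 values did not overlap between treatments, but plate 4 had only a 1.12-fold lower CPM with TNF. The log2 fold change was -0.59 with an SE of 0.17 (edgeR adjusted p = 0.463, and 0.0759 with the mouse as a block).

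The *Ms4a6b* and *Ms4a6c* start sites have the only upstream windows among the members that share a run of 12 bases, and these 2 genes were also the pair most alike across cells, so they are set side by side. The capitals mark the runs of at least 12 bases found in both windows, and both are on the plus strand, at chr19:11518309-11518558 for *Ms4a6b* and chr19:11469118-11469367 for *Ms4a6c* (RefSeq, GRCm38.p6).
Ms4a6b: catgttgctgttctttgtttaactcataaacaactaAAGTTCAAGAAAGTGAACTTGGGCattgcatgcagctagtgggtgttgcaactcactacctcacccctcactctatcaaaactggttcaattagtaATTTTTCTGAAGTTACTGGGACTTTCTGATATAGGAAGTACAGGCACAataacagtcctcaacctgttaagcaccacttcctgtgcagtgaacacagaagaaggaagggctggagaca
Ms4a6c: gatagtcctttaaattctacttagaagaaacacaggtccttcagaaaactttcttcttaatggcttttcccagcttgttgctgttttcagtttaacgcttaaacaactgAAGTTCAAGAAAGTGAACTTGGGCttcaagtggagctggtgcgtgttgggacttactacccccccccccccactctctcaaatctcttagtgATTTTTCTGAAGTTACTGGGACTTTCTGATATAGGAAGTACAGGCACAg
The windows shared 50 runs of 12 bases, which covered 72 bases in 2 stretches. The longer stretch, of 48 bases, lay at -118 to -71 from the RefSeq start of *Ms4a6b* and at -49 to -2 from that of *Ms4a6c*. Among 32806 other promoters, 172 shared any run of 12 bases with *Ms4a6b* and 508 with *Ms4a6c*, and for each of the pair the other gene alone shared as many as 50. The RefSeq start of *Ms4a6b* lies inside the gene as the count table has it. What binds the shared stretches was not measured.

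*Ms4a7* (ENSMUSG00000024672, chr19:11321039-11336146, minus strand), a gene known from mature tissue macrophages and microglia, was the member with the opposite direction. Without TNF it was at 357 and 348 CPM on the plates of mouse 1 and at 570 and 572 CPM on those of mouse 2. With TNF it was at 614 and 700 CPM in mouse 1 and at 741 and 763 CPM in mouse 2. The 4 plates with TNF all lay above the 4 without, as they did for 6.21% of all genes, and the mice differed mainly without TNF, with CPM 1.88-fold higher with TNF in mouse 1 and 1.32-fold higher in mouse 2. The log2 fold change was 0.61 with an SE of 0.27 (edgeR adjusted p = 0.661, and 0.0759 with the mouse as a block). Scaling to the spike-ins moved the median of all genes by 0.15 on the log2 scale, and *Ms4a7* was then at 0.83 and *Ms4a6d* at -0.48, so both kept their direction relative to that shift.

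The upstream window of *Ms4a7* is shown for comparison with those above, at chr19:11336147-11336396 on the minus strand (RefSeq, GRCm38.p6), with the match to TTCNNNNGAA at -13 to -4 from the start in capitals. It was the single match to that motif among the members’ windows.
Ms4a7: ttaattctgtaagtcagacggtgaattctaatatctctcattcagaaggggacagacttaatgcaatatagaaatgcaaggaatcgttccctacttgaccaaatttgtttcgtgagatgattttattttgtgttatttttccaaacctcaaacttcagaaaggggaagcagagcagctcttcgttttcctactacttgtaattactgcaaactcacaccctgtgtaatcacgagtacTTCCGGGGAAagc
A second RefSeq start of *Ms4a7*, with its window at chr19:11334696-11334945, had a match to the AP-1 motif TGANTCA at -81 to -75 and none to the others.

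Counting was limited by the likeness of the genes for some members. Only uniquely mapped 50-base read pairs were counted, and of the distinct runs of 50 bases in the GENCODE M21 transcripts of each gene, 0% were shared with another gene for *Ms4a4a*, 0.306% for *Ms4a7*, 2.54% for *Ms4a6d*, 3.57% for *Ms4a6b* and 8.19% for *Ms4a4c*, mostly with *Ms4a4b*. For *Ms4a6c* the share was 51.4%, nearly all of it with *BE692007*, a gene on the opposite strand that overlaps 1189 of its 2050 exon bases. The strand was not used in counting, so reads of *Ms4a6c* and *BE692007* over those bases cannot be told apart, and the value of either gene is uncertain to that extent. *Ms4a4c* and *Ms4a6b* overlap other genes by 28 and 19 exon bases.

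The 6 members lie within 284 kb of an array of 19 Ms4a genes that spans 679 kb of chromosome 19 (10962293 to 11640851). From 250 kb before to 250 kb after the array, 23 of 62 genes were tested. Every tested Ms4a gene between *Ms4a4a* and *Ms4a6d* had lower CPM with TNF, and the direction differed between *Ms4a7* and *Ms4a4a*, which are transcribed away from each other with only the untested *Gm28935* between them. *Ms4a14*, on the other side of *Ms4a7*, was at 17.9 and 50.9 CPM without TNF and at 19.8 and 47.6 CPM with TNF, a log2 fold change of -0.03 with an SE of 0.64, and differed between the mice rather than the treatments. *Ms4a4b*, known from T cells, was found in 13.8% of the cells, at 7.53 and 6.43 CPM without TNF and 2.88 and 2.61 CPM with TNF (log2 fold change -1.34, edgeR adjusted p = 0.348, and 0.0557 with the block). *Ms4a8a* was at 0.138 and 0.570 CPM without TNF and 0.405 and 3.54 CPM with TNF, so it lay close to the detection limit and its mice overlapped.

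Among the 14 tested genes of the window that are not Ms4a genes, the median log2 fold change was 0.20, 0 passed the threshold in the edgeR fit, and 3 did with the mouse as a block. *BE692007*, which overlaps *Ms4a6c*, and *Gm8369*, between *Ms4a6c* and *Ms4a6b*, were called lower with the block. *BE692007* was at 41.0 and 50.9 CPM without TNF and 11.2 and 15.8 CPM with TNF (block adjusted p = 0.00907). Reads over the 1189 exon bases it shares with *Ms4a6c* cannot be told apart, so its values are not independent of those of *Ms4a6c*. *Gm8369* was at 3.22 and 3.58 CPM against 0.804 and 1.101 CPM (block adjusted p = 0.0451). *AW112010*, nearer the other end of the array, was called higher with the block, from 12.9 and 20.8 CPM to 53.9 and 188 CPM (block adjusted p = 0.0171). The genes outside the array on both sides, from *Vps37c* to *Ccdc86* and from *Mrpl16* to *Gm6365*, had log2 fold changes between -0.25 and 0.57, and none passed in either fit.

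**Figure D2:**
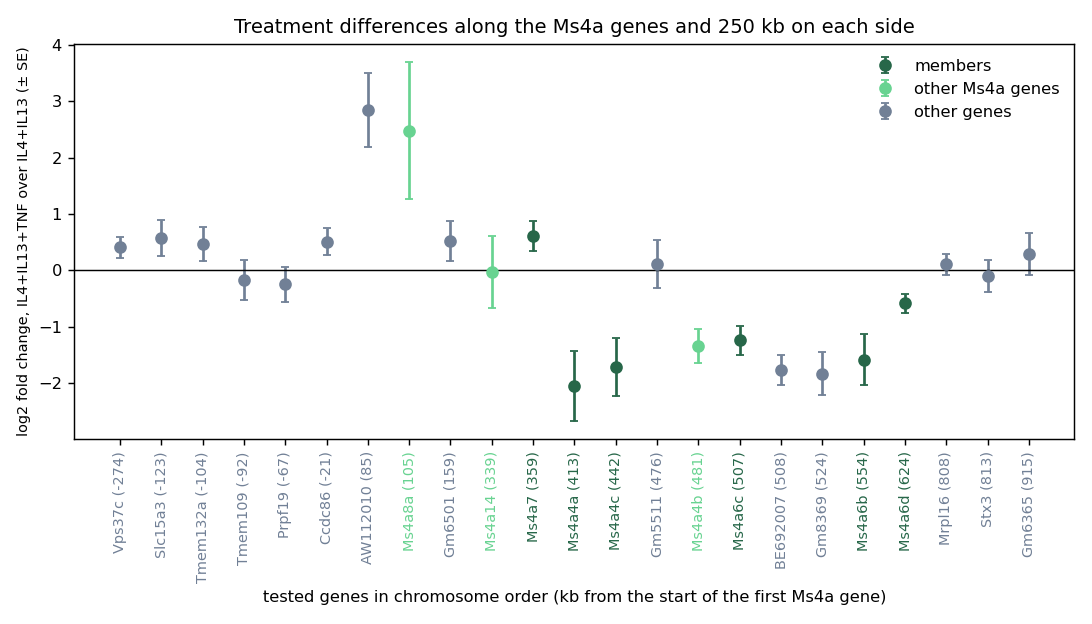
Log2 fold change of IL4+IL13+TNF over IL4+IL13 ± SE (y axis, edgeR without the block) for the 23 tested genes in chromosome order (x axis, with the distance in kb from the start of the first Ms4a gene). The Ms4a genes from *Ms4a4a* to *Ms4a6d* lie below 0, as do *Gm8369* and *BE692007*, which overlaps *Ms4a6c* and shares reads with it. *Gm5511* in the same stretch is at 0.11, and *Ms4a7* next to it is at 0.61.

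The members differed in how many cells carried them. After thinning each cell to 339000 fragments, which 1250 cells reached, *Ms4a6d* was found in 97.1% to 99.7% of the cells of any mouse and treatment and *Ms4a7* in 96.1% to 100%. At this cut of 1 fragment, their treatment difference lay mainly in the level per cell. The median cell had 459 and 357 CPM of *Ms4a6d* without TNF in mouse 1 and mouse 2 and 251 and 254 CPM with TNF. For *Ms4a7* it had 229 and 507 CPM without TNF and 549 and 643 CPM with TNF. At 5 fragments or more, the shares for *Ms4a6d* were 97.3% and 90.3% without TNF and 91.7% and 84.6% with TNF. Those for *Ms4a7* were 85.5% and 95.1% without TNF and 97.7% and 97.7% with TNF, so the split into level and share depends on the cut. The other 4 members were absent from many cells at this depth.

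*Ms4a4a* was found in 48.2% of 332 cells (95% exact Clopper-Pearson interval 42.7% to 53.7%) and 48.9% of 309 cells (43.2% to 54.6%) without TNF in mouse 1 and mouse 2. With TNF it was found in 15.8% of 303 cells (11.9% to 20.4%) and 30.7% of 306 cells (25.6% to 36.2%). Of the 94 cells of mouse 2 with *Ms4a4a* under TNF, 52 had only 1 to 4 fragments. At 5 fragments or more, its shares were 37.95% and 34.95% without TNF and 10.2% and 13.7% with TNF. Much of the gap between the mice with TNF was thus in cells with few fragments. At 1 fragment or more, *Ms4a6b* went from 61.4% and 70.6% of cells to 28.4% and 46.7%, and *Ms4a6c* from 89.2% and 88.0% to 64.7% and 73.5%. For these 3 genes the mice with TNF lay below the mice without, with differences of -25.2 ± 10.04, -28.4 ± 6.54 and -19.5 ± 7.05 percentage points (SD, n = 2 mice). The exact two-sided permutation test gave p = 0.333 for each, the smallest p that 2 mice against 2 can give. How many of all genes separate this way in shares of cells was not counted.

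The share of *Ms4a4c* was 20.5% and 48.2% of cells without TNF and 10.9% and 34.6% with TNF, lower within each mouse by a similar amount, with a difference of -11.6 ± 2.82 percentage points. The mice lay farther apart than that, so the values of the treatments overlapped across mice (exact two-sided permutation p = 0.667). Much of the gap between mice was in cells with 1 to 4 fragments, which were 6.02% of cells in mouse 1 and 32.0% in mouse 2 without TNF, and 4.29% and 25.8% with TNF. Counting only cells with at least 5 fragments, *Ms4a4c* was found in 14.5% and 16.2% of cells without TNF and in 6.60% and 8.82% with TNF, and the mice did not overlap. *Ms4a6b* also had more such cells in mouse 2, 18.4% and 32.4% without TNF and 16.2% and 24.2% with TNF.

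The transcripts of *Ms4a4a*, *Ms4a4c* and *Ms4a6b* were concentrated in few cells. Under IL4+IL13 the 5% of cells with most *Ms4a4a* held 43.4% and 42.2% of its fragments in mouse 1 and mouse 2, and with TNF 73.7% and 71.6%. The 5% of cells with most *Ms4a4c* held 74.3% and 70.2% of its fragments without TNF and 95.3% and 77.3% with TNF, and the 5% with most *Ms4a6b* held 36.2% and 36.8% without TNF and 68.6% and 49.2% with TNF. For *Ms4a6c* the top 5% held 20.2% and 20.8% without TNF and 32.0% and 24.6% with TNF. For *Ms4a6d* and *Ms4a7* the top 5% held 15.5% to 21.6%. Cells above 100 CPM of *Ms4a4a* made up 21.4% and 24.9% without TNF and 1.98% and 8.50% with TNF, so such cells were scarcer with TNF in both mice. The highest single cell of mouse 1 had 1147 CPM of *Ms4a4a* without TNF and 295 CPM with TNF. In mouse 2 the highest cell had 1268 CPM without TNF and 1198 CPM with TNF.

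Every one of the 1250 cells carried at least 1 of the 6 members at equal depth. The mean number of members per cell was 4.15 and 4.55 without TNF in mouse 1 and mouse 2 and 3.17 and 3.82 with TNF. All 6 were found together in 12.7% and 19.4% of cells without TNF and in 1.98% and 8.50% with TNF. At the low end, cells with only 2 members made up 7.53% and 2.59% without TNF and 27.4% and 13.4% with TNF. For each of these measures the 2 mice with TNF lay on one side of the 2 without, and the measures were not taken for other genes.

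**Figure D3:**
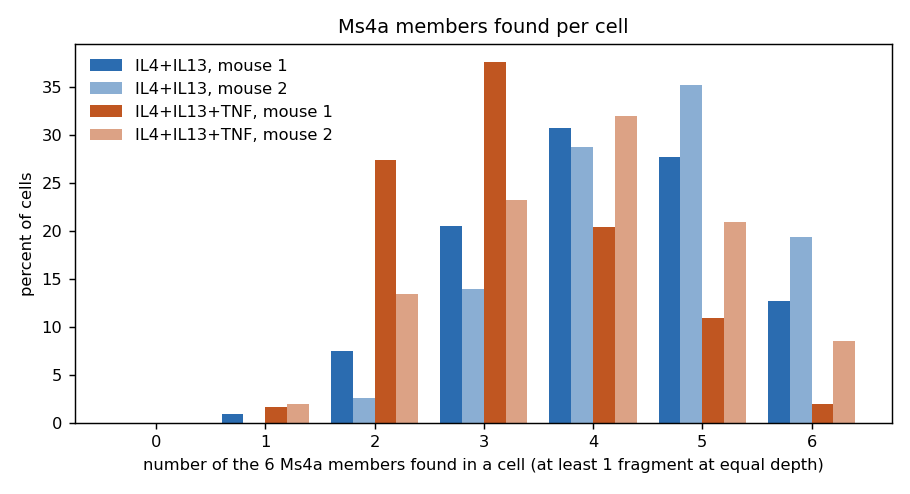
Percent of cells (y axis, from 0) in which 0 to 6 of the members were found (x axis, at least 1 fragment after thinning to 339000), as bars for each mouse and treatment. At 6 members the bars reach 12.7% and 19.4% without TNF but only 1.98% and 8.50% where TNF was added, and no bar stands at 0 members.

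Across cells of the same plate and treatment, *Ms4a6b*, *Ms4a6c*, *Ms4a6d* and *Ms4a4a* varied together. Spearman’s rho of log2(CPM + 1) at equal depth was computed within each of the 8 sets of cells, 128 to 175 cells each, and is given as a description, since cells of a set share a plate and a mouse. *Ms4a6b* and *Ms4a6c* had the highest mean rho of the 15 pairs, 0.478, with a range of 0.395 to 0.572 over the sets. *Ms4a6c* and *Ms4a6d* followed at 0.419 (0.368 to 0.500), then *Ms4a6b* and *Ms4a6d* at 0.323, *Ms4a4a* and *Ms4a6b* at 0.312, and *Ms4a4a* and *Ms4a6c* at 0.283. Of the runs of 50 bases, 3.44%, 5.85% and 2.31% of those of *Ms4a6b*, *Ms4a6c* and *Ms4a6d* are shared with another member, and what reads from them add to these values was not tested.

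*Ms4a4c* was less closely tied, with mean rho of 0.253 and 0.252 with *Ms4a6b* and *Ms4a6c* and of 0.115 with *Ms4a4a*, its neighbour and branch relative. The values of *Ms4a7* were also low, with mean rho between 0.0235 with *Ms4a4c* and 0.169 with *Ms4a6d*, and its rho of 0.158 with *Ms4a4a* and of 0.169 with *Ms4a6d* was above that of *Ms4a4c* with the same genes. The pattern was similar under both treatments: *Ms4a6b* and *Ms4a6c* had a mean rho of 0.489 without TNF and 0.467 with TNF, and *Ms4a6c* and *Ms4a6d* of 0.425 and 0.413. *Ms4a4a* and *Ms4a6d* were at 0.317 without TNF and 0.205 with TNF, with overlapping ranges over the plates.

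**Figure D4:**
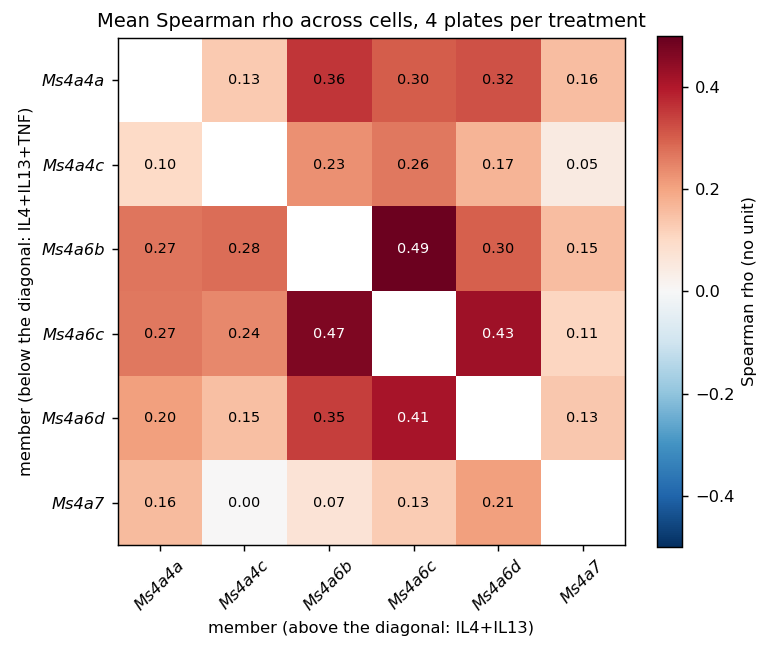
Mean Spearman rho across cells between pairs of members (colour and number), over 4 plates with IL4+IL13 above the diagonal and 4 plates with IL4+IL13+TNF below it. The pair *Ms4a6b* and *Ms4a6c* has the highest value on both sides of the diagonal, and the row and column of *Ms4a7* have low values.

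The likeness also shows in counts of cells. Among cells of mouse 1 with IL4+IL13, *Ms4a6b* was found in 77.5% of the 160 cells with *Ms4a4a* and in 46.5% of the 172 cells without it, and in mouse 2 in 75.5% of 151 and 65.8% of 158 cells. With TNF it was found in 54.2% of 48 and 23.5% of 255 cells in mouse 1, and in 59.6% of 94 and 41.0% of 212 cells in mouse 2. *Ms4a6c* was found in 99.0% of the 204 cells of mouse 1 with *Ms4a6b* without TNF, against 73.4% of the 128 cells without it. Cells with 1 of these transcripts thus held the other more often in each mouse and treatment.

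Measured against all 13474 other genes found in at least 10% of the cells, several members were among each other’s closest genes. The 3 genes most like *Ms4a4a* by mean rho were *Ms4a6b*, *Ms4a6c* and *Ms4a6d*, although *Ms4a4c* ranked 134. For *Ms4a6c* they were *Ms4a6b*, *Ms4a6d* and *Ly6e*, for *Ms4a6d* they were *Ms4a6c*, *Ms4a6b* and *Ly6e*, and for *Ms4a6b* they were *Ms4a6c*, *Ly6e* and *Ms4a6d*. *Ly6e*, a lipid-anchored surface protein of the interferon response, was also among the 3 for *Ms4a4c*, after *Ms4a6b* and *Ms4a6c*. The mean rho of *Ly6e* was 0.400 with *Ms4a6c*, 0.358 with *Ms4a6b*, 0.285 with *Ms4a6d* and 0.191 with *Ms4a4c*. The median rho over all genes was between 0.0052 and 0.0122 for these 5 members.

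*Ms4a7* had other neighbours. Its 3 closest genes were *Ctsb*, the lysosomal protease cathepsin B, at a mean rho of 0.358, *Itm2b*, an integral membrane protein, at 0.343, and *Cd68*, a lysosomal membrane glycoprotein of macrophages, at 0.334. Of the 13474 genes, the other members ranked 66 (*Ms4a6d*), 82 (*Ms4a4a*), 182 (*Ms4a6c*), 210 (*Ms4a6b*) and 2449 (*Ms4a4c*) for it. At equal depth, the members’ rho with the number of detected genes lay between -0.180 for *Ms4a7* and 0.10 for *Ms4a6b*, and with the mitochondrial share between -0.0689 and 0.0321.

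Gene lists of other macrophage features were set beside the members in the same cells. The mean of 12 *C1q*-high macrophage genes, led by *C1qb*, *Selenop* and *C1qc*, had a mean rho of 0.324 with *Ms4a6b*, 0.312 with *Ms4a6c*, 0.279 with *Ms4a4a* and 0.270 with *Ms4a6d*. It was 0.169 with *Ms4a7* and 0.0759 with *Ms4a4c*, and all 8 sets were above 0 for each member but *Ms4a4c*. Of these 12 genes, 0 passed the edgeR fit, and with the block 2 were called lower and 1 higher. The mean of 10 M2 genes, led by *Mrc1*, the mannose receptor, *Mgl2* and *Clec10a*, had a mean rho of 0.134 to 0.225 with the 5 members that were lower with TNF and of -0.008 with *Ms4a7*. Of these 10 M2 genes, 0 passed the edgeR fit, and with the mouse as a block 5 were called lower and 2 higher.

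The mean of 8 *Gpnmb*-high macrophage genes, led by *Lgals3*, *Gpnmb* and *Spp1*, split the members the other way. Its mean rho was negative for *Ms4a6c* at -0.241, *Ms4a6b* at -0.188, *Ms4a4a* at -0.152, *Ms4a4c* at -0.149 and *Ms4a6d* at -0.141, with all 8 sets below 0 for each, and positive for *Ms4a7* at 0.159, with all 8 sets above 0. Of these 8 genes, 0 passed the edgeR fit and 1 was called higher with the block. Proliferation genes, 10 in the list and led by *Pcna*, *Birc5* and *Top2a*, had a mean rho of -0.254 with *Ms4a7* (-0.428 to -0.0638) and of 0.0518 to 0.117 with the other 5. Between treatments all 10 had a log2 fold change below 0, with a median of -0.70, 0 called in the edgeR fit and 6 called lower with the block, and their part in the difference of *Ms4a7* was not tested. The list of 12 TNF response genes, of which the edgeR fit called 1 higher and the block 10, had a mean rho between -0.0540 and 0.0756 with the members, and for each of them the sets lay on both sides of 0. The 12 interferon response genes had a mean rho of 0.165 with *Ms4a6b*, 0.154 with *Ms4a6c* and 0.15 with *Ms4a4c*, and between treatments they had a median log2 fold change of -0.05, with 0 of 12 called in the edgeR fit and 1 with the block. The 7 antigen-presentation genes had a mean rho of 0.138 with *Ms4a4c* and of at most 0.0436 with the others over the 8 sets. By treatment, the 5 members that were lower with TNF had values of 0.0581 to 0.217 without TNF and of -0.0919 to 0.0604 with TNF. *Ms4a7* was at -0.0350 and -0.116. Of these 7 genes, 0 passed the edgeR fit and 4 were called higher with the block.

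**Figure D5:**
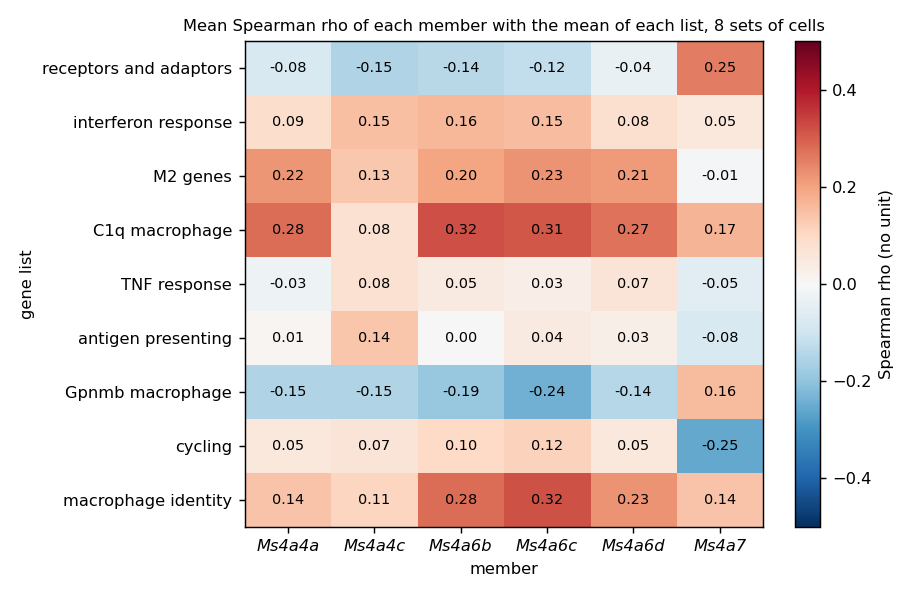
Mean Spearman rho over the 8 sets of cells (colour and number) between each member (x axis) and the mean log2(CPM + 1) of each gene list (y axis). The row of *Gpnmb* macrophage genes is negative for 5 members and positive for *Ms4a7*, and the row of cycling genes is lowest for *Ms4a7* at -0.25.

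Receptors, adaptors and tetraspanins were also set beside the members, and their list was not tested as a set. Of 12 listed receptors, adaptors and tetraspanins, 11 were tested, 0 passed in the edgeR fit (0.00587% of all genes did), and with the mouse as a block 2 were called lower and 1 higher (1.88% and 1.94% of all genes), with a median log2 fold change of -0.04. The lower genes were *Trem2*, the lipid-sensing receptor of microglia and macrophages, at 896 and 880 CPM without TNF and 632 and 546 CPM with TNF (block adjusted p = 0.0357), and *Fcgr3*, an activating Fc receptor, at 1197 and 937 CPM against 665 and 585 CPM (block adjusted p = 0.0193). The tetraspanin *Cd82* was called higher, from 24.5 and 30.4 CPM to 51.5 and 53.5 CPM (block adjusted p = 0.0307). *Clec7a*, which encodes Dectin-1 and was singled out after its values were seen, was at 250 and 488 CPM without TNF and at 601 and 741 CPM with TNF, so the mice did not overlap, and it missed the threshold (block adjusted p = 0.0551). The mean of the list had a mean rho of 0.254 with *Ms4a7*, above 0 in all 8 sets, and between -0.152 and -0.0360 with the other members.

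The rest of the family was largely absent. Of 17 further names, 15 matched the count table and 5 were tested. *Ms4a1* (CD20) was found in 3.25% of kept cells, with 73 fragments in all, and *Ms4a2* in 0.361%, with 76 fragments. *Tmem176a* and *Tmem176b*, distant relatives of the family on another chromosome, were the 2 called with the mouse as a block, both higher with TNF: *Tmem176b* was at 10.8 and 24.4 CPM without TNF and 122 and 229 CPM with TNF (block adjusted p = 0.00555), and *Tmem176a* at 1.45 and 11.9 CPM against 45.8 and 110 CPM (block adjusted p = 0.0181). In the edgeR fit without the block their adjusted p-values were 0.215 and 0.488.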

How the data were processed

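Single BMDMs of 2 mice were measured by Smart-seq2 under 2 treatments. The authors deposited 1 table of fragment counts per gene and well: they aligned fragments to mm10 (gsnap) and assigned the uniquely mapped ones to Ensembl 98 genes with featureCounts 1.6.3, without strand and without normalization, per the file header and the paper. Gene positions and exon lengths are those of the count table. Samples were grouped by treatment, mouse and plate from their titles. The 4 samples whose labels name no mouse were left out of all comparisons of the treatments. A further 8 columns with names found in no label were left unused. The members, the gene lists and the rule for naming genes were chosen with earlier results of these data known.

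Wells were removed per plate at 3 median absolute deviations (low total, few genes, high mitochondrial or spike-in share). The 92 spike-in rows were left out of totals and tests. Counts were summed per mouse and treatment, normalized by TMM and tested in edgeR 4.0.16 (glmQLFit, glmQLFTest, treatment as the only term, Benjamini-Hochberg adjustment over 17034 genes detected in 5% or more of either treatment’s cells); SEs are the log2 fold change divided by the square root of the quasi-likelihood F. Folds per mouse and plate use CPM with 0.5 added. The mouse numbers pair the samples, since the labels give 1 mouse and the same plates to both treatments, and the mice’s deviations correlated across genes with r = 0.568. The alternatives were the mouse as a block, DESeq2 1.42.0, limma 3.58.1 on mean CPM per cell, other scalings (library size, DESeq2 size factors, spike-ins), other filters and each of the 4 sums left out. With 2 mice per treatment, p-values of the fits without a block rest on the spread between these 2 animals. That spread takes in their plates, and any difference of experiment, as well. With the mouse as a block they rest on how far the treatment difference varied between the 2 mice. The permutation test did not pair the treatments within a mouse. Shares and rho used cells thinned to 339000 fragments, with 1 random draw per cell. Named are all members, tested family genes, the 3 genes most like each member and called neighbours. Called genes of the receptor and adaptor list and up to 3 genes with the highest CPM of each other list are named too. Scripts were tested on simulated counts. R 4.3.3 and Python 3.11.15 were used.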

Additional observations from a re-analysis of the deposited data

Results flagged for a closer look

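Of the 4 samples that are labelled IL4+IL13 without a mouse number, 3 have a column in the count table, on plates 3, 4 and 5, with 279461, 354874 and 87198 fragments. They entered no comparison of the treatments, and members above 3 fragments, the limit that a count of 0 allows, were looked for in them. The sample of plate 3 held 96 fragments of *Ms4a7* and 20 of *Ms4a6d*. The sample of plate 4 held 153 fragments of *Ms4a7*, 53 of *Ms4a6d* and 18 of *Ms4a6c*. The sample of plate 5 held 17 fragments of *Ms4a7*. *Ms4a4a* was at 0 fragments in all 3. *Ms4a6d* was at 71.6, 149 and 11.5 CPM, beside medians at equal depth of 459 and 357 CPM in the IL4+IL13 cells of mouse 1 and mouse 2. The 3 samples held 10802, 11121 and 8314 genes, beside medians of 7874 and 7431 in the kept IL4+IL13 cells. Whether they hold single cells was not tested, and they cannot be assigned to a mouse.

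Of 12 groups of 4 plates (6 members under 2 treatments), 1 had a plate far from the others: *Ms4a6d* with IL4+IL13+TNF was at 386 CPM on plate 4 and at 312 to 323 CPM on the other 3. Chance alone gives such a gap in about 1 of 20 groups.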

How the results depend on the processing

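All 6 members kept their direction in every one of the 13 alternative fits. With the mouse as a replicate block 2 of 6 members passed the threshold, *Ms4a4c* at -1.66 and *Ms4a6c* at -1.27 (log2). With DESeq2 4 did, *Ms4a4a* at -2.06, *Ms4a4c* at -1.73, *Ms4a6b* at -1.59 and *Ms4a6c* at -1.25. The block changed no other member’s call. Under library size, DESeq2 size factors in edgeR, spike-in scaling, no gene filter, limma and either cell filter 0 passed. The adjusted p over these 13 fits ranged from 0.00471 to 0.837 for *Ms4a4a*, 0.0112 to 0.904 for *Ms4a4c*, 0.0106 to 0.817 for *Ms4a6b*, 0.00234 to 1.000 for *Ms4a6c*, and 0.0759 to 1.000 for *Ms4a6d* and *Ms4a7*. Over all genes the counts called were 1 in the edgeR fit (0.00587%), 651 with the block (3.82%), 598 with DESeq2 (3.51%) and 12 with spike-in scaling (0.0704%). Library size, DESeq2 size factors, limma and the fixed cell filter each called 0.00587%. The fit with no cell filter called 0.00586% and the fit with no gene filter 0.00217%. Where so few genes were called, 0 of 6 is no result about the members. With 1 sum left out at a time, the spread of the other treatment stands in for that of a lone sum. The log2 fold changes were then -3.27 to -1.40 for *Ms4a4a*, -2.21 to -0.99 for *Ms4a4c* and -2.40 to -1.07 for *Ms4a6b*. They were -1.59 to -0.96 for *Ms4a6c*, -0.72 to -0.44 for *Ms4a6d* and 0.30 to 1.01 for *Ms4a7*. The share of cells with *Ms4a4c* differed by -14.7 points without thinning and by -7.61 points at 5 fragments or more, against -11.6; at 5 fragments or more, *Ms4a6d* differed by -5.60 points against -2.16 and *Ms4a7* by 7.36 against 1.79. The CPM by plate and the median rho of the pairs stayed within their spread under each alternative tried. The calls of lists and neighbours under the block and DESeq2 were added after seeing the data. Of 5 other family genes tested, 2 and 3 passed. Of 11 listed receptors, adaptors and tetraspanins 3 and 1 did, and of 14 neighbours 3 and 3. In the edgeR fit 0 passed. Over all genes the shares were 3.82% with the block and 3.51% with DESeq2. The cause of these changes was not tested. Without molecular identifiers, a cell with 1 to 4 fragments of a member can hold a single molecule, which limits the shares of the rarer members.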
